A study of Rattus norvegicus with 24 samples.

Results

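The late-numbered miRNAs of the rat were examined in the lung after inhalation of hexanal. These are the miRNAs registered with a number of 3000 or more, most of which were named from small RNA sequencing and many of which are restricted to rodents. All miRNAs on the array whose name carried such a number were taken, whatever their letter or arm, except miR-3585-5p. This gave 101 of the 719 miRNAs on the array. The rule used names only and no measured value.

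Fischer-344 rats of both sexes, obtained at the age of 7 to 8 weeks, inhaled filtered clean air (control) or hexanal, a volatile aldehyde, at 600, 1000 or 1500 ppm for 4 h a day on 5 days a week over 5 weeks. The sample titles give the concentrations in ppm, whereas the protocol in the labels gives the same figures in mg per cubic metre. Each of the 4 groups held 6 rats, 3 males and 3 females, and total RNA of whole lung from each rat was hybridised to 1 single-colour Agilent rat miRNA array. The comparisons asked whether hexanal changed these miRNAs at any dose, and whether the sexes differed.

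A miRNA is cut from a hairpin precursor, which can yield a mature strand from each arm (5p and 3p), and the strand that is loaded into an Argonaute protein guides it to mRNAs through the seed, the bases 2 to 8 from the 5′ end. Low numbers were given to miRNAs found early, mostly by cloning and by conservation between species. High numbers went mostly to those that deep sequencing added later, and some of these lie on the opposite DNA strand of an older miRNA gene, so that the mature strands are reverse complements.

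The mature sequences below are those of the miRNAs that were above background on all 24 arrays, with the seed in capitals, since the levels and differences described later rest on them. They come from RefSeq (GRCr8), where 90 of the 101 names matched. The 11 names without an entry were miR-3072, miR-3568, miR-3577, miR-3582, miR-3586-3p, miR-3586-5p, miR-3593-5p, miR-6318, miR-6320, miR-6323 and miR-6334.
miR-3473: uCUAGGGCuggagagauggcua
miR-6216: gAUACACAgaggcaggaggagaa
miR-3593-3p: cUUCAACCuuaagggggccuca
miR-3573-3p: uUCCUAACucugcccccucccau
miR-3588: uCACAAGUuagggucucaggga
miR-3068-3p: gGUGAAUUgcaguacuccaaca
miR-3584-5p: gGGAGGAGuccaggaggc
miR-6328: aGGCCUGCucugagcccccgc
miR-3085: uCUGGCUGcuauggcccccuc
miR-3559-5p: uGACAGACuuaguacuacauga

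None of the 90 members with a sequence shared its seed with another member. Only 3 shared one with a miRNA of a lower number. MiR-3065-5p had the seed of miR-7a-1-3p, miR-3573-5p had that of miR-423-5p, and miR-3596d had that of several let-7 3p strands. Each of these 3 was above background on no array.

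Of the 90, 33 lay on the opposite DNA strand of another miRNA with an unbroken run of at least 15 complementary bases. The complementary bases numbered 16 to 22, with a median of 21, and 20 members were complementary over their whole length. The pairs are shown here by the one whose late-numbered strand was seen on every array, miR-3588 opposite miR-125b-5p, by a pair from the let-7 family, and by the other tested members of this kind, with seeds in capitals.
miR-3588: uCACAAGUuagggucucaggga
miR-125b-5p: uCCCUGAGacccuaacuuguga
miR-3596a: aACUAUACaaccuacuaccuca
let-7a-5p: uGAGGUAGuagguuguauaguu
miR-3557-3p: aCACAGGAccuggagucaggag
miR-378a-5p: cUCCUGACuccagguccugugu
miR-3546: aUAACCCGggccaaaagcucac
miR-208a-5p: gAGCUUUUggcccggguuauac

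MiR-3588 and miR-125b-5p were complementary over 22 bases, as were miR-3596a and let-7a-5p and also miR-3557-3p and miR-378a-5p, whereas miR-3546 and miR-208a-5p shared 20. Other pairs of this kind were miR-3556a, miR-3556b and miR-3587 opposite miR-29a-3p, miR-29c-3p and miR-29b-3p, miR-3574 opposite the hypoxia-induced miR-210-3p, miR-3571 opposite the muscle miR-1-3p, and miR-3591 opposite the liver miR-122-5p.

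Few late-numbered miRNAs were measurable in the lung. A miRNA was called above background on an array when most spots of at least 1 of its probes carried the scanner software's flag for well above background. Of the 101 members, 24 (23.8%) were above background on at least 1 array, and 77 (76.2%) on none. Among the other 618 miRNAs, 302 (48.9%) were above background on at least 1 array. On all 24 arrays, the counts were 10 members (9.90%) and 201 of the others (32.5%).

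The share seen differed among the number blocks. Of the 11 members numbered from 3000 and below 3200, 5 were seen on at least 1 array, and of the 66 numbered from 3500 and below 6000, 11 were. Of the 23 numbered 6000 and above, 7 were seen. The one member from 3200 and below 3500, miR-3473, was seen on every array. Not above background on any array says that the signal was not told from background by these probes, not that the miRNA was absent.

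Among the members with a sequence, the strands opposite another miRNA were seen less often than the rest. The 11 members without a sequence entry were above background on no array. Of these 33 members, 4 were above background on any array: miR-3588 on 24, miR-3557-3p on 11, miR-3546 on 7 and miR-3560, which lies opposite miR-501-3p, on 1. Of the 57 members with a sequence and no miRNA opposite, 20 were seen. In 16 pairs the older strand was above background on all 24 arrays, and in 14 of these 16 the late-numbered strand was seen on none. The 14 included all 4 lettered members of miR-3596 opposite let-7a-5p, let-7d-5p, let-7e-5p and let-7f-5p, both members of miR-3556, and miR-3574. The exceptions were miR-3588 and miR-3557-3p.

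Where both arms of a hairpin were members, at most 1 arm was seen on more than 2 arrays. MiR-3068 gave its 3p strand on 24 arrays and its 5p strand on 2, miR-3573 gave 3p on 24 and 5p on 0, and miR-3593 gave 3p on 24 and 5p on 0. MiR-3584 and miR-3559 gave the 5p strand on 24 arrays and the 3p strand on 0. MiR-3557-3p was seen on 11 arrays and miR-3557-5p on 0, and miR-3558-3p on 4 and miR-3558-5p on 0. The other hairpins with both arms among the members were seen from neither.

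**Figure D1:**
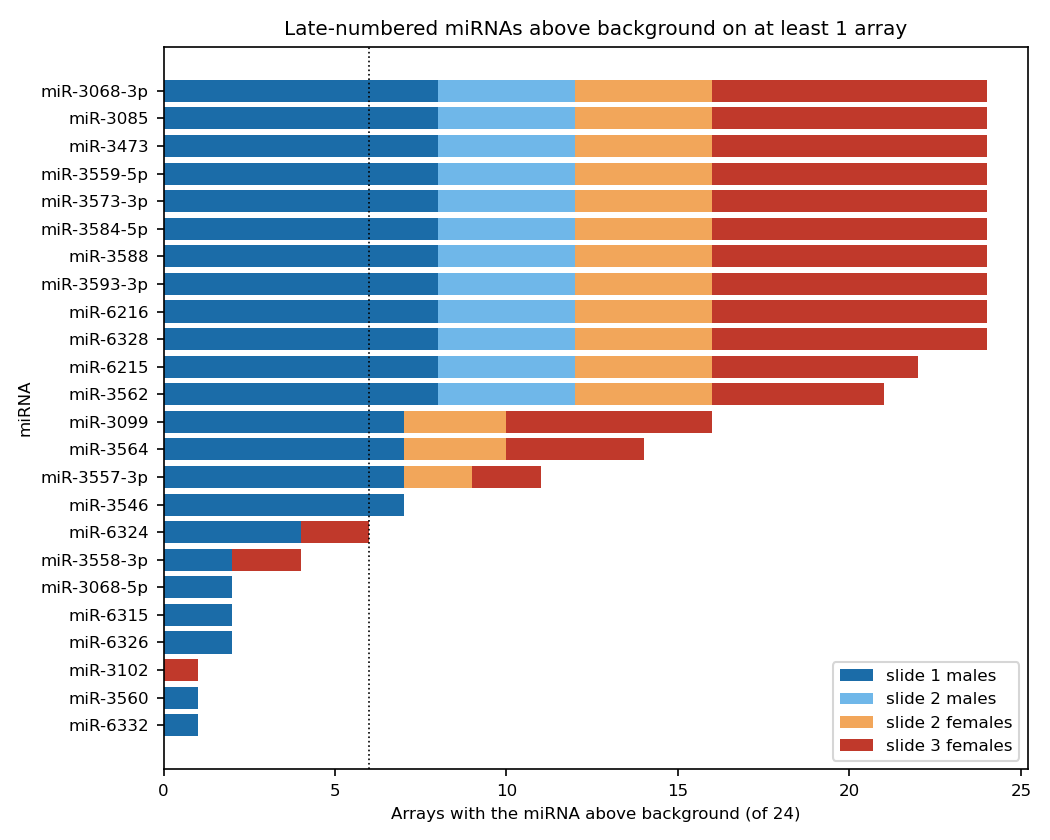
Number of the 24 arrays (x axis) on which each late-numbered miRNA (y axis) was above background, split by slide and sex of the rat; the dotted line marks 6 arrays, the least needed for a test. Of the 24 miRNAs shown, 10 reach 24 arrays, and miR-3546 was seen only on arrays of slide 1, all from males.

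Members were seen more often on slide 1. The arrays lay on 3 slides of 8 arrays, and slide was not balanced over dose and sex. All 8 rats of slide 1 were males, of which 3 were controls, 3 had received 600 ppm and 2 had received 1000 ppm. All 8 of slide 3 were females, of which 2 had received 600 ppm, 3 the middle and 3 the highest dose. Slide 2 carried 4 females, from the control and lowest dose groups, and 4 males, from the middle and highest dose groups. A comparison of controls with 1500 ppm within 1 slide and 1 sex was therefore not possible. The number of members above background had a lowest, median and highest value of 12, 17 and 21 on slide 1, 12, 12 and 15 on slide 2 and 10, 13.5 and 17 on slide 3. The other miRNAs above background also numbered most on slide 1, with medians of 265.5, 241 and 241. The arrays of slide 1 were also the brightest before scaling, with a median 75th percentile of 1096 intensity units against 733 and 833.

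Each sample carried the miRNAs of lung. All 5 epithelial, both endothelial, both red blood cell and all 3 leukocyte markers were above background on 24 arrays, and both brain markers were above background on none. Of the 5 markers of striated muscle, 1 was seen on all arrays, 1 on 21, 1 on 18 and the others on none, and the liver marker miR-122-5p was seen on 21. Any 2 arrays correlated between 0.978 and 0.998 over the 283 tested miRNAs, and no arrays held identical values. Nothing in the labels says more of the replicates than that each came from its own rat, and the p-values measure the spread between these rats. As these are bulk samples, fewer cells of a type and less RNA per cell cannot be told apart.

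Levels are log2 scaled intensities, and because probes bind with different strength, the level of one miRNA cannot be set against that of another. A miRNA was tested when at least 1 probe was above background on 6 or more arrays, which 17 of the 101 members and 266 of the other 618 miRNAs passed. The 17 were those bright enough to test and do not stand for all 101. Within dose groups, the 17 had a median standard deviation of 0.35 on the log2 scale, against 0.18 for the other tested miRNAs. For the members seen on all arrays and the others seen on all arrays, these were 0.38 and 0.17. The recorded intensities of the members were also lower, with median levels of 4.59 against 6.16, and of 5.53 against 7.33 for those seen on all arrays. Differences by sex and slide within a dose group enter these standard deviations.

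**Figure D2:**
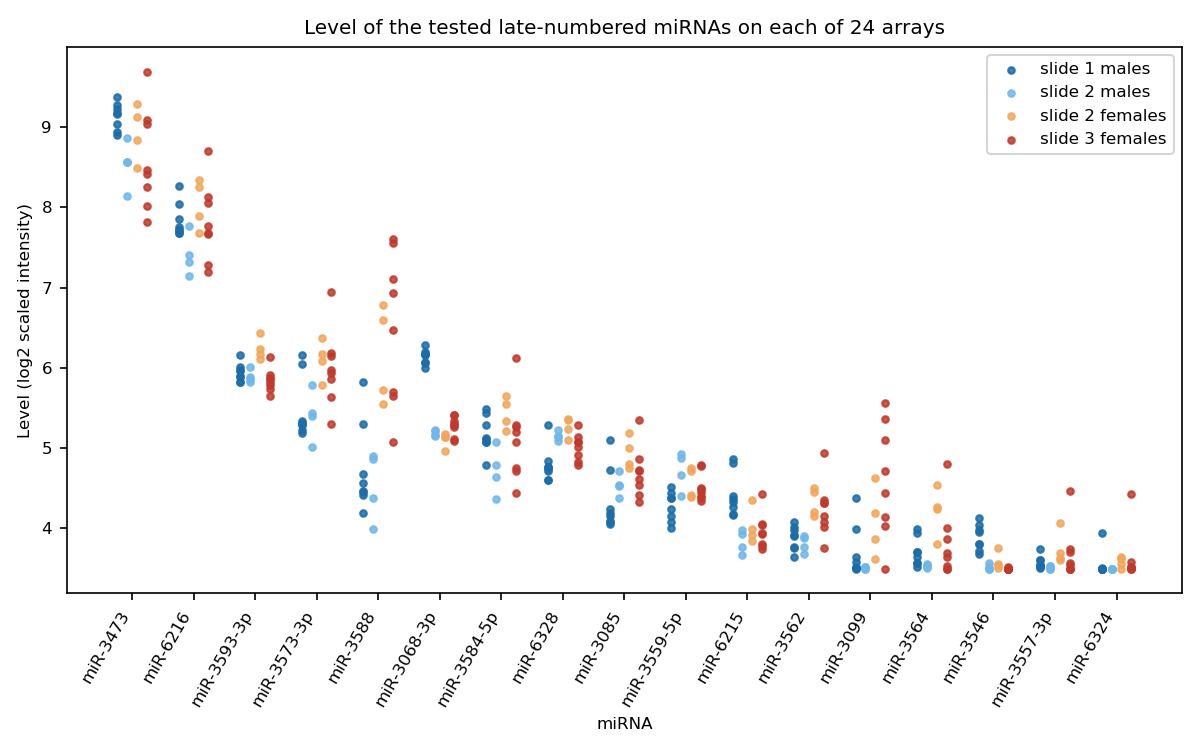
Level (y axis, log2 scaled intensity) of each of the 17 tested late-numbered miRNAs (x axis, by mean over all arrays) on each array, coloured by slide and sex. MiR-3588 had the widest range, 12.3-fold over the 24 arrays, and miR-3068-3p split into slide 1 and all other arrays.

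The 10 members seen on all arrays had these levels. MiR-3473 ranged from 7.82 to 9.69 with a mean of 8.82. MiR-6216 ranged from 7.14 to 8.70 with a mean of 7.79. Both stayed far above the floor of 3.50 set for signals not told from background. MiR-3593-3p ranged from 5.65 to 6.43 with a mean of 5.95, and miR-3573-3p from 5.01 to 6.94 with a mean of 5.75. The miR-3573 hairpin lies within Efnb1, the gene of an ephrin ligand. MiR-3588 ranged from 3.99 to 7.61 with a mean of 5.53. MiR-3068-3p, whose hairpin lies within Alkbh1, ranged from 4.96 to 6.29 with a mean of 5.52. Both are described further by sex and slide.

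Lower intensities were recorded from the probes of the remaining 4. MiR-3584-5p, from within Itprip, ranged from 4.36 to 6.12 with a mean of 5.12. MiR-6328 ranged from 4.60 to 5.36 with a mean of 5.00. MiR-3085 ranged from 4.05 to 5.36 with a mean of 4.59. These 3 and miR-3559-5p, which ranged from 4.00 to 4.93 with a mean of 4.48, stayed above the floor on every array.

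The other 7 tested members reached or neared that floor on some arrays. MiR-6215 ranged from 3.67 to 4.87 and was above background on 22 arrays. MiR-3562, from within Cep131, ranged from 3.64 to 4.93 on 21 arrays, and miR-3099 from 3.50 to 5.56 on 16. For the last 4, most arrays sat near the floor. MiR-3564 ranged from 3.50 to 4.81 and was seen on 14 arrays, and miR-3557-3p from 3.50 to 4.46 on 11. MiR-3546 ranged from 3.50 to 4.13 on 7 arrays, and miR-6324 from 3.50 to 4.43 on 6.

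MiR-3473, which lies within Zranb3 on the opposite strand, carries a stretch that recurs in the genome. Its bases 8 to 21, CTGGAGAGATGGCT as DNA, occurred on either strand in 120 (0.359%) of the 33469 promoter windows of 300 bases around gene starts. For each of the other 16 tested members, the most frequent stretch of 14 bases occurred in 0 to 8 windows. A match is only a description of these windows. The probes of miR-3473 also disagreed. Between males and females, 1 probe differed by 0.53 (male minus female, log2) and the other by -0.08, and between 1500 ppm and control they differed by -0.45 and -0.02.

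No late-numbered miRNA changed past the threshold at any dose. With limma's moderated test and Benjamini-Hochberg adjustment over 283 miRNAs, 0 of the 17 tested members passed an adjusted p of 0.05 at 600, 1000 or 1500 ppm, and 0 of all 283 did in each comparison (background 0%). At an unadjusted p under 0.05 the members numbered 1 at 600 ppm, 1 at 1000 ppm and 2 at 1500 ppm, against 1.77%, 6.01% and 9.19% of all miRNAs tested. The test of any dose and the dose trend also passed 0 members of 0 called in all (background 0% each), with 0 and 3 members at an unadjusted p under 0.05 against 5.3% and 10.2% of all. All 3 doses were compared with the same 6 control rats.

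The members' differences from control did not pass the test with or without slide. The median over the 17 was -0.06 at 600 ppm, -0.16 at 1000 ppm and -0.04 at 1500 ppm on the log2 scale, against 0.02, -0.01 and 0.00 over all 283 miRNAs. With slide as a factor, the members' medians were -0.13, -0.23 and -0.17, against 0.02, -0.01 and -0.02 over all 283 miRNAs. At 1500 ppm, 15 of the 17 were lower in place of 10, a count not taken over all miRNAs. The lowest difference was then -1.11 ± 0.48, for miR-3588 at 1500 ppm (limma adjusted p = 0.413), and still 0 members passed. The dose fits with slide as a factor held no term for sex. On slide 2 the controls were all females and the 1500 ppm rats all males, so in these fits dose and sex are partly mixed. Without slide, the single differences ran from -0.36 to 0.13, from -0.41 to 0.69 and from -0.50 to 0.14. The median standard error was 0.19. The 95% confidence intervals reached from -1.33 to 1.98 at their widest, for miR-3588, and this fit therefore bounds its dose response only loosely. The fit held no term for sex, so the intervals include the spread between males and females. With sex as a covariate, the members' median standard error was 0.17 at each dose and 0 members passed. For the dose trend, 0 members and 3 of all 283 miRNAs then passed limma's adjusted threshold.

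**Figure D3:**
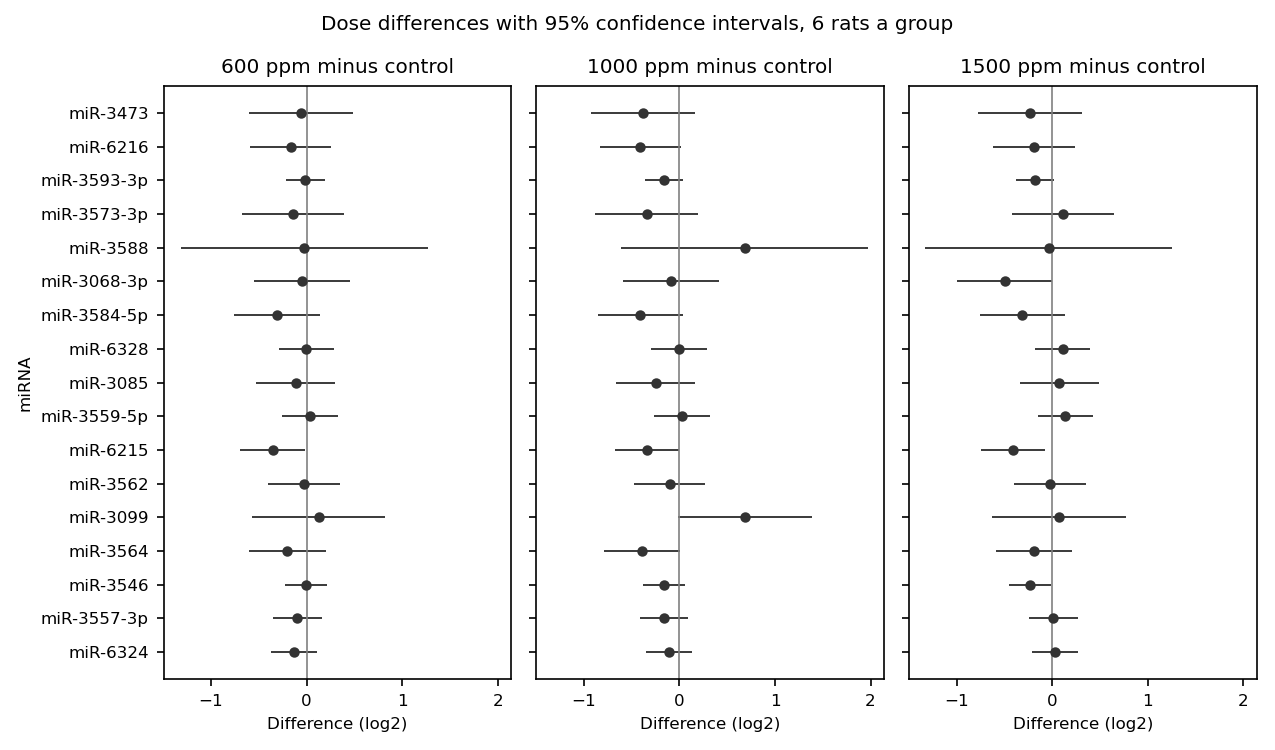
Difference from control on the log2 scale (x axis) at 600, 1000 and 1500 ppm for each tested late-numbered miRNA (y axis); points are limma estimates from 6 rats a group and bars their 95% confidence intervals. The intervals of miR-6215 lay below 0 at each dose before adjustment, and that of miR-3546 did at 1500 ppm.

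MiR-6215, from within Iffo2 on the opposite strand, had the smallest p among the members at each dose. Its lowest, median and highest levels were 3.92, 4.36 and 4.87 in controls, 3.74, 4.01 and 4.33 at 600 ppm, 3.77, 4.00 and 4.41 at 1000 ppm, and 3.67, 3.96 and 4.43 at 1500 ppm. The groups overlapped at every dose, although 16 of 18 exposed rats lay below the control mean. The differences were -0.36 ± 0.16 (SE), -0.34 ± 0.16 and -0.41 ± 0.16, with limma adjusted p of 0.996, 0.636 and 0.433. The slope per 1000 ppm was -0.26 ± 0.10 (adjusted p = 0.368 in limma's trend test).

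The controls behind those values were split by sex and slide. The 3 control males, on slide 1, had a mean level of miR-6215 of 4.68 and the 3 control females, on slide 2, of 4.09. Among males of slide 1 alone, 600 ppm differed from control by -0.42 ± 0.14 with no overlap of 3 and 3 rats, as in 13.1% of all miRNAs, and the adjusted p was 0.712 in limma. With slide as a factor the difference at 1500 ppm was -0.22 ± 0.12 (adjusted p = 0.535).

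Other members with the smallest p in a dose comparison followed. MiR-3546 had levels of 3.50, 3.71 and 4.05 in controls and 3.50, 3.51 and 3.57 at 1500 ppm (lowest, median, highest), and was above background on 3 and 0 arrays. The groups overlapped at the floor. The measured difference was -0.23 ± 0.11 (limma adjusted p = 0.498). With the 1500 ppm rats set at the lowest signal told from background, the control mean was 1.00-fold theirs, which leaves the size of the difference unknown. All 3 control arrays with a signal were on slide 1.

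MiR-3068-3p had levels of 5.14, 5.67 and 6.29 in controls and 5.10, 5.19 and 5.26 at 1500 ppm. The 1500 ppm rats fell within the lower part of the control range. The difference of -0.50 ± 0.24 (limma adjusted p = 0.498) became -0.08 ± 0.06 with slide as a factor. MiR-3099 had levels of 3.58, 3.76 and 4.19 in controls and 3.50, 4.54 and 5.56 at 1000 ppm, which overlapped, and differed by 0.69 ± 0.34 (adjusted p = 0.636). With slide as a factor this was 0.26 ± 0.28 (adjusted p = 0.793), and the 3 highest of its 1000 ppm values were those of the females on slide 3.

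The remaining members named by their rank did not pass the threshold. MiR-3564 differed from control by -0.39 ± 0.19 at 1000 ppm (limma adjusted p = 0.636), with levels of 3.70, 3.97 and 4.27 in controls and 3.50, 3.60 and 3.71 at that dose. MiR-3584-5p differed by -0.31 ± 0.22 at 600 ppm (adjusted p = 0.996), with levels of 5.08, 5.39 and 5.65 in controls and 4.44, 5.20 and 5.44 at that dose. In both, the exposed rats overlapped the controls. MiR-6324 differed by -0.13 ± 0.12 at 600 ppm, where it was above background on 0 arrays against 3 of 6 controls, and no fold can be given for it. MiR-3593-3p had a slope of -0.14 ± 0.06 per 1000 ppm (adjusted p = 0.451).

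Males and females differed in 8 of the 17 tested members before slide was considered. With dose group as a factor, 124 of 283 miRNAs (43.8%) passed an adjusted p of 0.05 in limma, 46 higher in males (16.3%) and 78 lower (27.6%). Of the members, 2 were higher in males, miR-3068-3p and miR-3546, and 6 were lower, miR-3588, miR-3099, miR-3562, miR-3573-3p, miR-3085 and miR-3564. The share called among the members was thus close to that of all miRNAs. MiR-3546 had passed the filter only through males of slide 1, so its call cannot count as support for a difference between the sexes. With slide added as a factor, 10 of 283 (3.53%) passed and 0 members did, while 8 members had an unadjusted p under 0.05 against 17% of all. With normexp background correction in place of the processed signal, only miR-3588 passed among the members (-1.10, adjusted p = 0.0115).

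**Figure D4:**
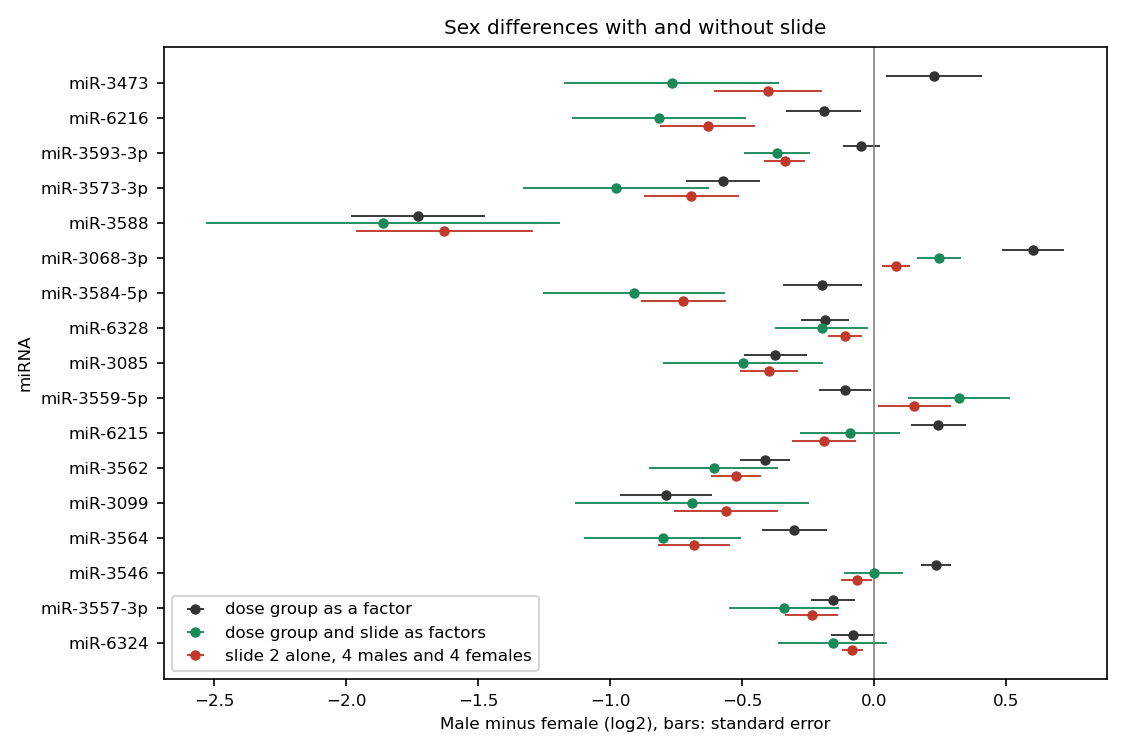
Male minus female difference (x axis, log2) of each tested late-numbered miRNA (y axis) with dose group as a factor, with slide added, and on slide 2 alone; bars are standard errors. MiR-3588 stayed between -1.86 and -1.63 in all 3, whereas miR-3068-3p went from 0.60 to 0.08.

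MiR-3588, the strand opposite miR-125b-5p, had the largest difference between the sexes among the members. Its lowest, median and highest levels were 3.99, 4.52 and 5.82 in the 12 males and 5.07, 6.53 and 7.61 in the 12 females. The sexes overlapped, but each of the 12 males lay below the female mean. The difference was -1.73 ± 0.25 (male minus female, 3.31-fold, limma adjusted p = 0.000122).

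A difference of like size was measured on slide 2, the only slide with both sexes. There, the levels were 3.99, 4.62 and 4.90 in 4 males and 5.55, 6.16 and 6.78 in 4 females, with no overlap. The difference was -1.63 ± 0.34 (limma adjusted p = 0.0275), and 20 of 283 miRNAs (7.07%) passed in this comparison. The males and females of slide 2 differed in exposure as well as in sex, so that the 2 cannot be told apart on that slide. With slide as a factor over all arrays it was -1.86 ± 0.67, with an unadjusted p of 0.0118 and an adjusted p of 0.162.

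Between the sexes, the probes of miR-3588 differed in the size of the effect and not in its sign. The brighter probe, above background on 24 arrays, gave -2.41 ± 0.28 when used alone, and the dimmer probe, above background on 13, gave -1.04. The difference of -1.73 averages both, and includes values of the dimmer probe at or near the floor. MiR-125b-5p, encoded on the other strand, had levels of 11.54, 11.78 and 12.01 in males and 11.55, 11.84 and 12.02 in females, which overlapped throughout, and a difference of -0.03 ± 0.05 (adjusted p = 0.674 in limma). Across doses, miR-3588 had its highest mean, 6.06, at 1000 ppm against 5.38 in controls, and its standard deviation there was 1.57, as 3 females lay between 6.93 and 7.61. At 600, 1000 and 1500 ppm the dimmer probe differed from control by 0.24, 1.08 and 0.12, and the brighter by -0.29, 0.29 and -0.19. Their signs were thus opposite at 600 and 1500 ppm, and the higher mean at 1000 ppm came mostly from the dimmer probe. The summed level of the 3 leukocyte markers ranged from 11.46 to 11.81 in males and from 11.59 to 12.12 in females, and their part in the difference was not tested.

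MiR-3068-3p separated the arrays by slide. All 8 arrays of slide 1 lay between 6.00 and 6.29, and the other 16 arrays lay between 4.96 and 5.42, with no overlap. The 4 males on slide 2 lay between 5.15 and 5.22 and the 4 females beside them between 4.96 and 5.18. The male minus female difference was 0.60 ± 0.12 over all arrays (limma adjusted p = 0.00113) and 0.08 ± 0.05 on slide 2 (adjusted p = 0.452).

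Between males of slide 1 and slide 2, miR-3068-3p differed by 0.95 ± 0.05 (1.93-fold, limma adjusted p = 1.79e-08). Over all arrays, its 3 probes were higher in males than in females by 0.56 to 0.67, and on slide 2 alone by 0.04 to 0.13. The summed level of the 2 red blood cell markers ranged from 11.02 to 11.62 on slide 1, from 10.03 to 10.86 in males and 10.07 to 10.59 in females of slide 2, and from 10.46 to 11.38 on slide 3, and their part in the difference was not tested. The 1500 ppm males were all on slide 2 and the control and 600 ppm males all on slide 1. Between these groups, slide and dose cannot be told apart among males. The 1000 ppm males lay on both slides, at 6.17 and 6.06 on slide 1 and at 5.15 on slide 2. With so few rats, slide was not tested within that dose.

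Dim members were among those that differed between the sexes. MiR-3099 had levels of 3.50, 3.52 and 4.37 in males and 3.50, 4.32 and 5.56 in females, a difference of -0.79 ± 0.17 (limma adjusted p = 0.00183). MiR-3562 had levels of 3.64, 3.89 and 4.08 in males and 3.75, 4.26 and 4.93 in females, a difference of -0.41 ± 0.09 (adjusted p = 0.00235). In both, the ranges overlapped and all 12 males lay below the female mean. On slide 2, miR-3562 differed by -0.52 ± 0.09 (limma adjusted p = 0.0199) with no overlap. MiR-3099 was above background on 0 of 4 male arrays and 3 of 4 female arrays there. With the males set at the lowest signal above background, miR-3099 was 1.38-fold higher in females, which is not a strict minimum.

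Of the brighter members, miR-3573-3p had levels of 5.01, 5.33 and 6.16 in males and 5.30, 6.03 and 6.94 in females, and differed by -0.57 ± 0.14 (limma adjusted p = 0.00348). MiR-3085 had levels of 4.05, 4.31 and 5.10 in males and 4.32, 4.74 and 5.36 in females, and differed by -0.37 ± 0.12 (adjusted p = 0.0177). Both overlapped between the sexes. On slide 2 they differed by -0.69 ± 0.18 (adjusted p = 0.0660) and -0.40 ± 0.11 (adjusted p = 0.0823).

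MiR-3546 was above background on 7 of the 8 arrays of slide 1 and on no other array, whether male or female. It is the strand opposite miR-208a-5p, a miRNA from the heart myosin gene Myh6. MiR-3546 passed the filter of 6 arrays only through males of slide 1, the group where it was high. Its calls by sex and by slide are therefore no support for a difference. Its measured difference between the sexes was 0.24 ± 0.06 (limma adjusted p = 0.00331), for which no fold can be given, since no female array was above background. Within slide 2 it was -0.07 ± 0.06. With the males of slide 2 set at the lowest signal above background, males of slide 1 were 1.21-fold higher. This contrast is the one that admitted miR-3546 to the test, and the fold is not a strict minimum, so it is no support either. The summed level of the 3 striated muscle markers that were tested ranged from 6.11 to 7.70 on slide 1 and from 5.31 to 8.09 in males of slide 2, and their part was not tested.

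MiR-3564 differed between the sexes by -0.30 ± 0.12 with an adjusted p of 0.0494 in limma, at the edge of the threshold. Leaving out 1 array at a time lost the call in 19 of 24 cases (adjusted p from 0.0220 to 0.0917). Its levels were 3.50, 3.56 and 4.00 in males and 3.50, 3.84 and 4.81 in females, with 7 of 12 arrays above background in each sex. On slide 2 it was above background on 0 of 4 male and 3 of 4 female arrays. With the males set at the lowest signal above background, it was 1.52-fold higher in females, which is not a strict minimum. The measured difference was -0.68 ± 0.14 (limma adjusted p = 0.0275).

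On slide 2 alone, where the males had received 1000 or 1500 ppm and the females clean air or 600 ppm, 5 members passed, all lower in males, against 20 of all 283 miRNAs (7.07%). Beside miR-3588, miR-3562 and miR-3564 these were miR-3584-5p, with -0.72 ± 0.16 (limma adjusted p = 0.0368), and miR-3593-3p, with -0.34 ± 0.08 (adjusted p = 0.0400). Of the 17 members, 8 did not overlap between the 4 males and the 4 females, against 12.7% of all 283 miRNAs. In direction alone, 15 were lower in the males of this slide, a count not taken over all miRNAs. MiR-3584-5p and miR-3593-3p differed over all arrays by -0.20 ± 0.15 (adjusted p = 0.281) and -0.05 ± 0.07 (adjusted p = 0.576). The other members had adjusted p between 0.0655, for miR-6215, and 0.435, for miR-6324, over all arrays.

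**Figure D5:**
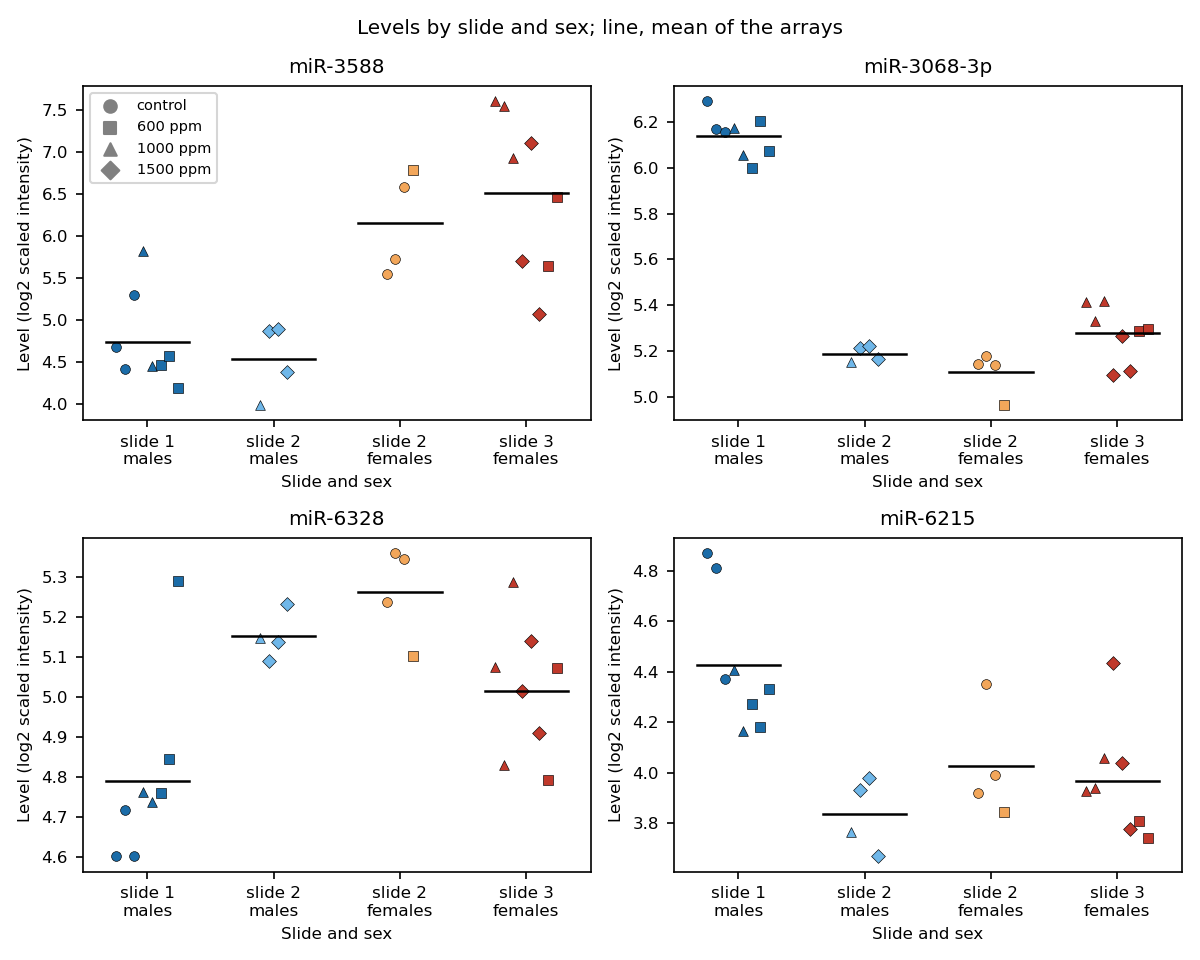
Levels (y axis, log2 scaled intensity) of miR-3588, miR-3068-3p, miR-6328 and miR-6215 by slide and sex (x axis); each point is 1 rat, its shape the dose group, and the line the mean. The mean of miR-3588 was 4.74 in males of slide 1 and 4.53 in males of slide 2, against 6.16 in females of slide 2 and 6.51 in females of slide 3. Only slide 2 held both sexes. MiR-3068-3p was high on slide 1 only.

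For 2 members, the dose response differed by sex when slide was left out. Over all miRNAs, 71 of 283 (25.1%) passed limma's test of the dose by sex interaction, and miR-3068-3p (F = 7.55, adjusted p = 0.0161) and miR-6328 (F = 6.43, adjusted p = 0.0205) did so among the members. The call of miR-6328 was lost without control male 3, control female 22 or 1500 ppm male 18, with a highest adjusted p of 0.0526. MiR-6215 came next (F = 4.62, adjusted p = 0.0528). At 1500 ppm the male response minus the female response was -1.01 ± 0.24 for miR-3068-3p, 0.80 ± 0.19 for miR-6328 and -0.82 ± 0.24 for miR-6215. With slide as a factor, 0 members and 0 of all miRNAs passed limma's adjusted threshold (background 0%), and 1 member and 12 miRNAs (4.24%) had an unadjusted p under 0.05.

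The means behind miR-6328 show the pattern. In males, its mean level was 4.64 ± 0.07 (SD, n = 3) in controls and 5.15 ± 0.07 at 1500 ppm, with controls on slide 1 and the 1500 ppm rats on slide 2. In females it was 5.31 ± 0.07 in controls, on slide 2, and 5.02 ± 0.11 at 1500 ppm, on slide 3. Its level was thus highest on slide 2 in each sex, where it lay between 5.09 and 5.36, and 7 of 8 arrays of slide 1 lay below that range.

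Slide itself was tested with dose group and sex as factors. It passed for 136 of 283 miRNAs (48.1%) and for 6 of the 17 members. These were miR-3068-3p (F = 119, limma adjusted p = 1.40e-09), miR-6215 (F = 10.9, adjusted p = 0.00247), miR-3593-3p (F = 9.91, adjusted p = 0.00383), miR-6328 (F = 8.20, adjusted p = 0.00801), miR-3559-5p (F = 7.70, adjusted p = 0.00995) and miR-3546 (F = 7.05, adjusted p = 0.0129). The call of miR-3546 comes from the arrays of slide 1 that admitted it to the test. MiR-3588 did not pass (F = 0.178, adjusted p = 0.863).

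Among males, 8 of 17 members passed limma's threshold between slide 1 and slide 2, against 51.2% of all 283 miRNAs. Of these 8, 6 were higher and 2 lower on slide 1. The 6 include miR-3546, which passed the filter only through males of slide 1, so its call is no support for a difference between slides. In direction alone, 14 of the 17 were higher on slide 1, a count not taken over all miRNAs. MiR-3473 was higher by 0.60 ± 0.12 (limma adjusted p = 0.00120) and miR-6215 by 0.59 ± 0.14 (adjusted p = 0.00294), both with no overlap. In this comparison 4 of the 17 members did not overlap, against 97 of all 283 miRNAs (34.3%). MiR-3559-5p differed by -0.44 ± 0.11, with overlap (adjusted p = 0.00605). Among females, slide 3 differed from slide 2 in 1 member, miR-3593-3p, which fell by 0.39 ± 0.08 (adjusted p = 0.0196), against 4.95% of all. Slides also differed in the doses they held.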

How the data were processed

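Lung total RNA of 24 rats, 6 a group, was labelled with Cy3 and hybridised to rat miRNA arrays by the authors. They deposited scanner output of Agilent Feature Extraction 11.5.1.1, which holds the background-corrected signal intensity of 14380 non-control spots per array. The deposited value table of the series holds the total gene signal, with lower values set to 1 (58.7% of values). Groups came from the sample titles.

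Spots flagged as outliers were left out. Processed intensities were scaled so that each array had the same 75th percentile over the 394 probes above background on all arrays, raised to a floor of 11.3 where lower (8.59% of spots of kept probes), and averaged as log2 values per probe and miRNA (log2 of the deposited intensities after scaling). The floor equals 3.50 on the log2 scale. Probes above background on at least 6 arrays were kept (555 probes, 283 miRNAs, 17 of them members). The number of arrays limits the precision. Limma 3.58.1 in R 4.3.3 was fitted to all 283 miRNAs, with Benjamini-Hochberg adjustment and a threshold of 0.05, and was tested on simulated data. Dose fits held 1 mean per group, and the trend fitted dose as a number. Sex was tested with dose group as a factor, and slide with both. Where no array of a group showed a miRNA above background, a fold was taken against the lowest signal above background. This fold is not a strict minimum, since an array not above background can read higher. For miR-3564 on slide 2, the males were set at 3.61, whereas control female 21 read 3.81 and was not above background.

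Mature sequences came from RefSeq (GRCr8), an assembly other than that of the array design, and no coordinates are given. Named members were, for each comparison, up to 10 with the smallest p past the threshold or otherwise the 3 smallest, the 10 with the highest mean level on all arrays, and every other tested member with its range. The members, lists and tests were chosen with earlier results of these data known. The alternatives were other scalings, filters, floors, probe choices and signals, slide as a fixed or random factor, sex as a covariate, single slides, a plain unpaired comparison and leaving out each array.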

Additional observations from a re-analysis of the deposited data

Results flagged for a closer look

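Of 72 groups of 6 arrays examined for 1 array far from the others (17 members and the number of members seen, at 4 doses), 9 stood out. For values with a normal spread, chance gives about 1 in 20, or 3.6. Groups with most arrays at or near the floor do not have such a spread, so the 9 cannot be set against the 3.6. Each value is the gap of that array to its nearest neighbour as a share of the range of the group.

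MiR-3473 at 600 ppm was low in female rat 28 (gap 0.739), at 7.82 against a mean of 9.16 in the other 5 rats. Female rat 36 at 1500 ppm was high in 3 members, with miR-6324 at 4.43 (gap 0.983), miR-3557-3p at 4.46 (gap 0.791) and miR-3564 at 4.81 (gap 0.715). It was the only rat of its group with miR-6324 or miR-3557-3p above background. Male rat 17 at 1500 ppm was high in miR-3593-3p (gap 0.630), at 6.01 against a mean of 5.83, and in miR-3546 (gap 0.782), which was not above background on any array of that group.

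MiR-6324 stood out in the other groups too. It was high in control male 2 (gap 0.670), at 3.95, in female rat 31 at 1000 ppm (gap 0.707), at 3.59, and in female rat 27 at 600 ppm (gap 0.901), at 3.51. Rats 31 and 27 were themselves not above background for it.

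The dose response differed between the sexes in limma's interaction test for miR-3068-3p (F = 7.55) and miR-6328 (F = 6.43). Neither passed with slide as a factor, with F values of 2.54 and 2.58 and an adjusted p of 0.765 for both.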

How the results depend on the processing

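The count of 0 members past the threshold at 600, 1000 and 1500 ppm, for any dose and for the dose trend held under every alternative run, including the plain unpaired comparison of each miRNA and each array left out. The 8 members that differed between the sexes became 4 with only miRNAs seen on all arrays (10 tested), 4 in the value table of the series, 1 with normexp on median brightness, 0 with slide as a fixed or random factor and 5 within slide 2, and were 7 to 8 when each array was left out. The 2 members of the dose by sex interaction became 4 with the percentile over all probes or quantile scaling, 1 with no filter, the total gene signal or the value table, and 0 with normexp or slide in either form. They ranged from 1 to 4 when each array was left out, with 4 without 1000 ppm male 13 and 1 without 1500 ppm male 18. The 6 members of the slide test became 14 with normexp and 10 in the value table, and were 6 to 8 with each array left out. Shares over all miRNAs are not given here for these alternatives, so the counts do not show anything particular to the members. With any single spot, 53 members were above background on at least 1 array in place of 24. Signs turned for miR-6215 (0.30), miR-3584-5p (0.22) and miR-6324 (0.35) at 600 ppm with normexp. Between the sexes they turned for miR-3546 with normexp (-0.22), with slide as a factor (-0.0022) and within slide 2 (-0.067), and for miR-3564 with the total gene signal (0.14) and the value table (0.23). The call of miR-3564 was also lost without most single arrays, the sex difference of miR-3068-3p was 0.03 with normexp (limma adjusted p = 0.929), and the interaction call of miR-6328 was lost without control male 3, control female 22 or 1500 ppm male 18. The causes were not tested. No paired analysis was possible because the groups share no replicate numbers. Members near the floor carry little signal over background, which limits what can be said of them.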

Other observations

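The 24 members seen on at least 1 array had a median GC content of 54.5%, and the 66 with a sequence that were seen on none had 47.8%. The 33 members opposite another miRNA had 45.5% and the other 57 had 52.4%. The mature strands were 18 to 25 bases long. Of the 17 tested members, 12 lay within the bounds of a protein-coding gene of GRCr8, 5 of them on its strand: miR-3068-3p (Alkbh1), miR-3562 (Cep131), miR-3573-3p (Efnb1), miR-3584-5p (Itprip) and miR-6324 (Brwd1). MiR-3557-3p lay opposite Ppargc1b, the gene of a coactivator of mitochondrial metabolism that also holds miR-378a. The 7 members seen on 1 to 4 arrays and not tested were miR-3558-3p on 4, miR-3068-5p, miR-6315 and miR-6326 on 2 each, and miR-3102, miR-3560 and miR-6332 on 1 each. Of these 13 single detections, 10 were on slide 1.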
